A study of Mus musculus with 6 samples.

Results

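The fibroblast growth factor (FGF), platelet-derived growth factor (PDGF) and vascular endothelial growth factor (VEGF) families were examined in inguinal adipose tissue (iAT), the subcutaneous fat depot of the groin. Members were chosen by gene symbol: every *Fgf* or *Fgfr* symbol followed by digits only, the 4 PDGF ligands with both of their receptors, and the VEGF ligands *Vegfa* to *Vegfd* and *Pgf* with the receptors *Flt1*, *Kdr* and *Flt4*. This gave 39 of 19831 listed genes, with 25 in the FGF family, 6 in the PDGF family and 8 in the VEGF family. *Vegfd* was listed under its former symbol *Figf*. RNA was sequenced from 3 wild-type (WT) samples and 3 samples lacking *Npffr1* (Npffr1-KO), the gene of neuropeptide FF receptor 1, at postnatal day 6. All mice were kept under specific pathogen-free conditions, and the RNA of both groups was extracted with TRIzol. The labels give neither sex nor strain, nor whether tissue was pooled, and do not say how the allele was made. Nothing in the labels says that samples of a genotype came from separate animals, so p-values measure only the spread between these samples.

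The 3 families signal through receptor tyrosine kinases, which dimerize when a ligand binds them and then switch on the RAS-MAPK and PI3K-AKT relays. FGFs act on 4 receptors, mostly between stromal cells, epithelium and fat cell precursors. The endocrine FGFs need a Klotho co-receptor, and the intracellular members of the family are not secreted and bind voltage-gated sodium channels. PDGFs recruit mural cells to vessels, and PDGFRα marks adipocyte progenitors. VEGF-A drives the growth of blood vessels through *Kdr* (VEGFR2) and is bound by *Flt1* (VEGFR1), whereas VEGF-C and VEGF-D act on lymphatic vessels through *Flt4* (VEGFR3).

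The VEGF receptor genes had the lowest Npffr1-KO to WT ratios among the receptors, and the bases just before their starts are shown for that reason. These ratios have no spread and are not particular to them. The log2 ratio of *Kdr*, -0.41, was close to that of *Fgfr1*, -0.38, and those of endothelial markers ran from -0.46 to 0.02. Each run has 200 bases of the gene's own strand, read 5′ to 3′ and ending at the last base before the start, from RefSeq on build GRCm38.p6. Capitals mark GGAA or its reverse complement TTCC, the core letters bound by ETS factors such as ERG, which endothelial cells express. The runs lie at chr5:147726012-147726211 on the minus strand for *Flt1*, at chr5:75978456-75978655 on the minus strand for *Kdr*, and at chr11:49609479-49609678 on the plus strand for *Flt4*.
Flt1: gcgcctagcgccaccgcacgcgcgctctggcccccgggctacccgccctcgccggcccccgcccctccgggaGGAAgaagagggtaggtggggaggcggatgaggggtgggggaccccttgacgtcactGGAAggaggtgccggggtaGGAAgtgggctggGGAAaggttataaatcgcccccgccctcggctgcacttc
Kdr: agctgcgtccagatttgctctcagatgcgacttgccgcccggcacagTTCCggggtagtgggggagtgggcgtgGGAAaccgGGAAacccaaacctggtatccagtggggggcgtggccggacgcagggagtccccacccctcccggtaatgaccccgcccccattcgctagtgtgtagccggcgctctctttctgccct
Flt4: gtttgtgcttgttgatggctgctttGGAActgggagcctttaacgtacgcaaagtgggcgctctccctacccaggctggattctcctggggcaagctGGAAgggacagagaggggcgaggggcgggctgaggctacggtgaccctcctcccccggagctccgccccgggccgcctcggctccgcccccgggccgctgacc

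The *Flt1* run held 4 such cores, and 21.5% of the 32851 promoters in the RefSeq table held at least as many in windows of this length. *Kdr* held 3, a number that 41.0% of promoters reached, and *Flt4* held 2, which 66.2% reached. At least 1 core was found in 89.0% of all promoters, so these letters are common, and a match is a description of the sequence only. Promoters were in the table for 30 of the 39 members.

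The deposited table gives 1 value per gene and genotype, on the scale of read counts normalized for library size, which is called the authors' value here. It is not the mean count of the genotype's libraries. *Fgf6*, with 0 WT reads, had a WT value of 0.346. *Fgf12* had values of 33.4 in WT and 20.1 in Npffr1-KO, against means of recovered counts of 35.0 and 18.6. The mean of the 2 values of a gene is an exact sum of whole reads divided by the size factors of the 6 libraries. Where that mean did not exceed 300 normalized counts, reads could usually be assigned library by library. A single combination of reads fitted 994 of 1011 genes with means of 50 to 100, but 98 of 691 at 100 to 150. Above 150 this held for 0 genes, and the most probable of several combinations was taken. Counts, spreads and p-values then depend on that choice. This applies to *Fgf1*, *Fgf7*, *Fgf11*, *Fgf13*, *Fgf18*, *Pdgfa*, *Pdgfc*, *Vegfc*, *Vegfd* and *Pgf*, and may apply to *Fgfr3* and *Pdgfd*. The libraries obtained in this way are named WT a, b and c and Npffr1-KO a, b and c, because they could not be tied to the sample numbers. Their size factors lay between 0.916 and 1.04, and the recovered reads added up to between 487781 and 572979 per library. The mean correlation of each library with the others lay between 0.893 and 0.915. Npffr1-KO c had the lowest correlation, size factor and read total. *Npffr1* itself had 1, 0 and 5 reads in WT a, b and c and 0 reads in every Npffr1-KO library, and with 6 reads in all this is a weak check of the labels.

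Of the 39 members, 29 reached a mean of 10 normalized counts. The reads of each library were recovered for 28 members, and 16 members with a mean between 10 and 300 entered the test, limma on log2(normalized count + 1) over 5223 genes. None of the 16 passed an adjusted p of 0.05. Among all tested genes 9 passed, which is 0.172%, with 6 higher and 3 lower in Npffr1-KO, and that count rested on single libraries: it was 0 without WT a or Npffr1-KO a, 1 without WT b or WT c, 18 without Npffr1-KO b and 23 without Npffr1-KO c. At an unadjusted p of 0.05, 1 of 16 members (6.25%) stood against 760 of 5223 genes (14.6%). The lowest adjusted p of a member was 0.281, for *Fgf12*. The number of members past the threshold was also 0 with limma's voom weights. Missing the threshold does not show that levels were equal, since the 95% intervals of the log2 differences ran from -0.31 to 0.33 for the most precise member, *Vegfd*, and from -1.88 to 0.46 for the least precise, *Fgf2*.

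**Figure D1:**
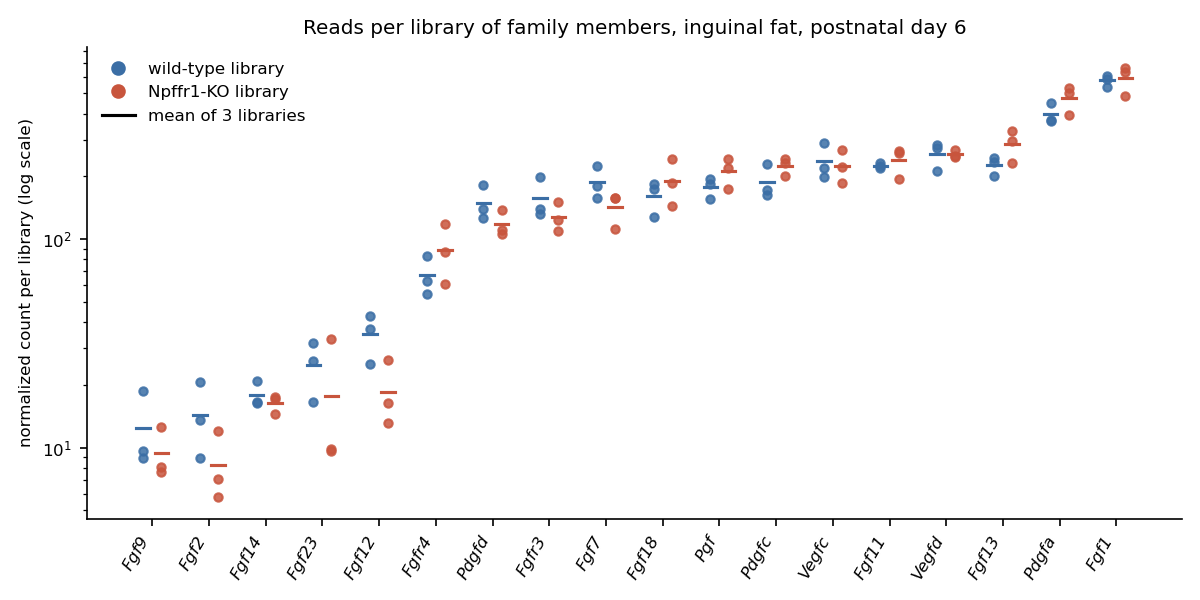
Normalized counts per library (log scale) of the 18 members with a mean of at least 10 whose reads were recovered, in order of their mean. Points are single libraries (blue WT, red Npffr1-KO) and lines are means of 3 libraries. Among the 16 tested members only *Fgf7* shows all 3 Npffr1-KO points below all WT points.

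The authors' values allow a description of all 29 members with a mean of at least 10, without a test. Of these, 19 had a lower and 10 a higher value in Npffr1-KO, and the median log2 ratio of Npffr1-KO to WT was -0.15, against 0.01 over the 15309 genes with such a mean, of which 48.8% were lower. An Npffr1-KO value below 80% of the WT value was found for 9 members (*Kdr*, *Flt1*, *Flt4*, *Fgfr1*, *Pdgfra*, *Fgf2*, *Fgf7*, *Fgf12* and *Fgf23*), against 11.6% of all genes. A value over 25% above that of WT was found for *Fgfr4* alone, against 12.0% of all genes. Receptors and other members are given apart here, without a test of their difference. Of the 9 receptors, 8 were lower, with a median log2 ratio of -0.37. Of the 20 ligands and intracellular members, 11 were lower, with a median of -0.03.

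**Figure D2:**
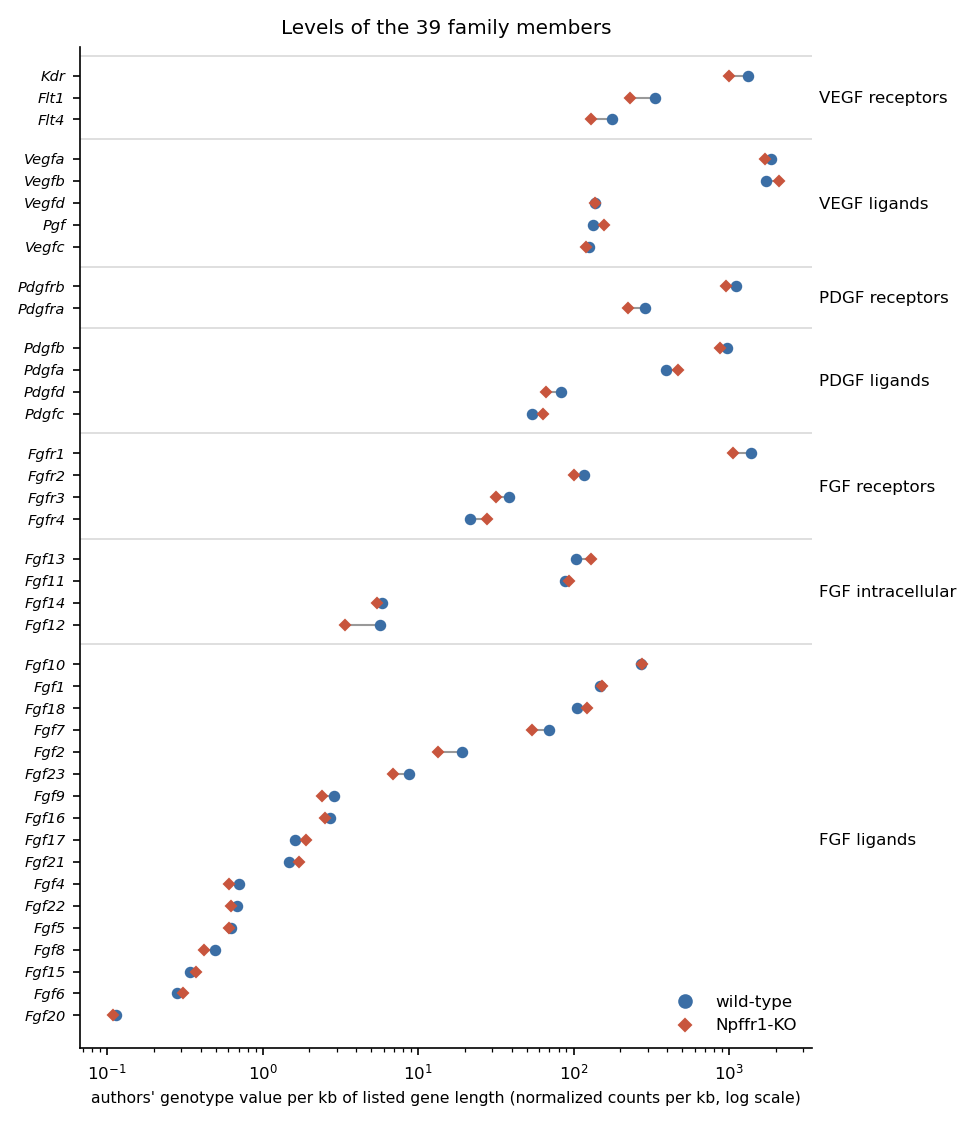
Authors' values of all 39 members divided by the listed gene length (normalized counts per kb, log scale), grouped by family and role, with WT as circles and Npffr1-KO as diamonds. *Vegfa*, *Vegfb*, *Fgfr1*, *Kdr*, *Pdgfrb* and *Pdgfb* lead, and all 3 VEGF receptors have the Npffr1-KO diamond to the left of the WT circle.

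Gene length moved with the ratio and has to be read beside the receptors. Across the 15309 genes the median log2 ratio was 0.27 in the shortest of 20 length classes (64 to 836 bases) and -0.15 in the longest (7427 to 91727 bases). The receptors are long, with a median listed length of 5410 bases (3146 to 6555), whereas the median of the ligands and intracellular members was 2612 bases. Of the 5279 genes as long as the receptors, 64.6% were lower and 14.2% were below 80% of WT, as were 5 of the 9 receptors. When each log2 ratio was centred on genes of like length, 8 of 9 receptors remained below 0, with a median of -0.24, but only *Flt1* and *Flt4*, 2 of the 5, stayed past the limit of 80%, and the ligands and intracellular members had a median of -0.08. The trend was not examined library by library. Whether it rested on single libraries, such as Npffr1-KO c, was not tested. The part of gene length in the values of single members was not tested either.

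**Figure D3:**
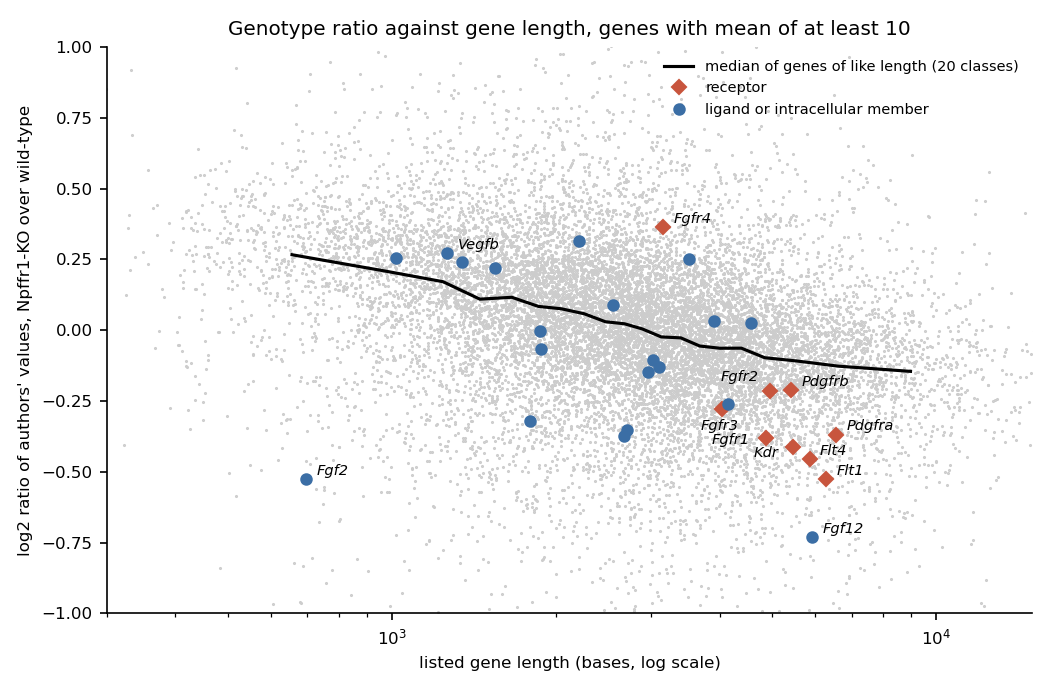
Log2 ratio of the authors' values (Npffr1-KO over WT) against listed gene length (log scale) for genes with a mean of at least 10, with receptors as red diamonds, other members as blue circles and the median of genes of like length as a black line. All receptors but *Fgfr4* lie below the line, and 197 genes outside the axes are not drawn.

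*Kdr*, the main signaling receptor of VEGF-A, had an authors' value of 7247 normalized counts in WT and 5449 in Npffr1-KO, a log2 ratio of -0.41. For *Flt1*, which binds VEGF-A and placental growth factor, the values were 2099 and 1458, with a log2 ratio of -0.53. The receptor of lymphatic vessels, *Flt4*, had 1037 and 757, with a log2 ratio of -0.45. The WT values of the 3 receptors were thus 1.33-fold to 1.44-fold those of Npffr1-KO, and all 3 remained lower relative to genes of like length, with a median of -0.35. Per kb of gene, the WT level of *Kdr* was 3.97 times that of *Flt1* and 7.49 times that of *Flt4*, and the corresponding ratios in Npffr1-KO were 4.30 and 7.71. Summed over the 3 receptors, the values were 10382 and 7664, a log2 ratio of -0.44. Their reads per library were not recovered, so these differences have no spread and no p-value.

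Markers of the cells that carry these receptors were lower as well. Of 10 endothelial markers, 9 had a lower value in Npffr1-KO, 4 of them below 80% of WT. Their median log2 ratio was -0.29, with single values from -0.46 to 0.02. Among all genes with a mean of at least 10, 48.8% were lower and 11.6% were below 80% of WT. The counts of every marker and pathway list have to be read beside these shares. *Cdh5*, the cadherin of endothelial junctions, had 23029 in WT and 17863 in Npffr1-KO, and *Pecam1*, a surface protein of endothelium, had 18487 and 15218. Summed over all 10 endothelial markers, the value was 85308 in WT and 69126 in Npffr1-KO, a log2 ratio of -0.30. After centring for length all 10 were lower. All 5 lymphatic markers were lower, with a median of -0.24, but *Lyve1* only by a log2 ratio of -0.004. *Lyve1*, a hyaluronan receptor, had 1283 and 1280, and *Pdpn*, podoplanin, had 526 and 445. No endothelial or lymphatic marker was at 0 in either genotype, but an authors' value can stay above 0 without reads, as for *Fgf6* in WT. The only one of these 15 markers that was tested, *Prox1*, the transcription factor of lymphatic identity, did not pass the threshold. In bulk tissue, fewer endothelial cells and less receptor RNA per cell cannot be told apart, and the part of endothelial content in the receptor values was not tested.

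**Figure D4:**
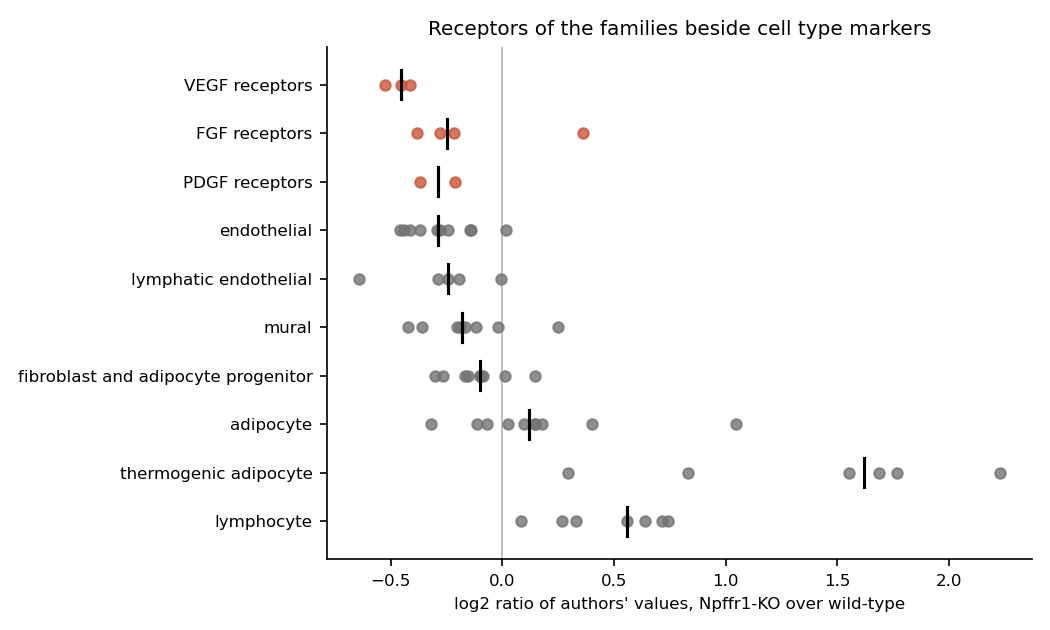
Log2 ratios of the authors' values (Npffr1-KO over WT) for the receptors of the families (red) beside markers of 7 cell types (grey), 1 point per gene with a mean of at least 10, and black ticks for the medians. VEGF receptors (median -0.45) lie beside endothelial (-0.29) and lymphatic markers (-0.24), opposite to thermogenic adipocyte markers (1.62).

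Of the 5 VEGF ligands, 3 had a lower and 2 a higher authors' value in Npffr1-KO, with a median log2 ratio of 0.00. *Vegfa*, the principal angiogenic ligand, had 5777 normalized counts in WT and 5277 in Npffr1-KO, a log2 ratio of -0.13. *Vegfb*, a ligand of *Flt1*, had 2180 and 2633, a log2 ratio of 0.27. Per kb, *Vegfa* was thus 1.08 times *Vegfb* in WT and 0.818 times in Npffr1-KO, the highest ligand levels of the 3 families in either genotype. *Vegfb* is short, with 1264 bases, and genes of its length had a median ratio of 0.17.

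The other 3 VEGF ligands were recovered per library, and none had separate groups. *Vegfd* had normalized counts of 275, 212 and 282 in WT a, b and c and 252, 247 and 268 in Npffr1-KO a, b and c. Its fitted log2 difference was 0.01 ± 0.15 (SE, 3 against 3 libraries; limma, adjusted p = 0.986), with a 95% interval from -0.31 to 0.33. *Vegfc*, the main lymphangiogenic ligand, had 220, 288 and 199.5 in WT and 186, 222 and 267 in Npffr1-KO, a difference of -0.06 ± 0.18 (interval -0.45 to 0.32). Both ligands of *Flt4* therefore had overlapping libraries. *Pgf*, placental growth factor, had 157, 194 and 184 in WT and 219, 242 and 174 in Npffr1-KO, where 2 of 3 libraries exceeded every WT library. The difference was 0.24 ± 0.18 (limma, adjusted p = 0.563).

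A list of 15 genes covered VEGF co-receptors, angiopoietins with their receptors, angiogenic targets and oxygen sensing. Of these, 3 had a higher and 12 a lower authors' value in Npffr1-KO. The higher ones were *Vhl*, *Apln* and *Esm1*, with log2 ratios of 0.25, 0.21 and 0.09. The median log2 ratio was -0.18. Relative to genes of like length, 10 were lower, with a median of -0.13. *Epas1*, a hypoxia-inducible factor of endothelium, had 10792 in WT and 8606 in Npffr1-KO. The apelin receptor gene *Aplnr* had 9140 and 7571, and *Tie1*, an endothelial receptor of the angiopoietin system, had 6819 and 5724. Only 2 of the 15 genes were tested, and none passed the threshold.

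In the PDGF family, both receptors had lower values in Npffr1-KO. *Pdgfrb*, the receptor of mural cells, had 5978 in WT and 5164 in Npffr1-KO. Its log2 ratio was -0.21, or -0.10 relative to genes of like length. *Pdgfra*, the receptor of adipocyte progenitors, had 1894 and 1467, a log2 ratio of -0.37, or -0.24 relative to genes of like length. *Pdgfrb* exceeded *Pdgfra* per kb by 3.82 times in WT and 4.27 times in Npffr1-KO. Of 8 mural markers, 7 were lower, with a median log2 ratio of -0.18; *Rgs5* had 15562 and 13644, and *Mcam* had 12920 and 11507. Of 9 fibroblast and progenitor markers, 7 were lower, with a median of -0.10; the collagen gene *Col15a1* had 28742 and 26860, and the proteoglycan gene *Dcn* had 23689 and 19239. No gene of either list was at 0, but authors' values can stay above 0 without reads. The part of cell content in the receptor values was not tested.

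The 4 PDGF ligands pointed in different directions. *Pdgfb*, which endothelial cells release to recruit mural cells, had the highest level of the ligands, with 2852 in WT and 2573 in Npffr1-KO (log2 ratio -0.15). *Pdgfa* had 369, 450.3 and 372 normalized counts in WT and 530.0, 395 and 505 in Npffr1-KO. Its groups overlapped through 1 library of each genotype, and it lay above the range of the test. *Pdgfc*, a ligand that is activated by proteases, had 163, 228 and 172 in WT and 200.5, 243 and 232 in Npffr1-KO, a difference of 0.27 ± 0.17 (limma, adjusted p = 0.493). For *Pdgfd*, a ligand of PDGFRβ, the counts were 140, 182 and 127 in WT and 111, 138 and 106 in Npffr1-KO, a difference of -0.33 ± 0.21 (limma, adjusted p = 0.496). The intervals, -0.10 to 0.64 for *Pdgfc* and -0.78 to 0.12 for *Pdgfd*, both included 0.

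*Fgfr1* was the dominant FGF receptor of iAT. Its authors' value was 6711 in WT and 5154 in Npffr1-KO, a log2 ratio of -0.38, or -0.28 relative to genes of like length. Per kb it exceeded *Fgfr2* by 11.8 times, *Fgfr3* by 35.7 times and *Fgfr4* by 63.8 times in WT, and by 10.6, 33.3 and 38.1 times in Npffr1-KO. *Fgfr2*, the receptor for FGF7 and FGF10 in its epithelial form, had 578 and 498. Its log2 ratio was -0.22, or -0.12 relative to genes of like length.

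The 2 weaker FGF receptors could be tested. *Fgfr3* had 132, 199 and 140 normalized counts in WT and 150, 109 and 123 in Npffr1-KO, with a difference of -0.29 ± 0.22 (limma, adjusted p = 0.575). *Fgfr4*, the receptor for endocrine FGF15 in liver, had 62.8, 54.8 and 83.4 in WT and 118, 86.8 and 61.1 in Npffr1-KO. It was the only receptor with a higher value in Npffr1-KO, with a mean of 67.0 ± 14.7 (SD, n = 3) in WT and 88.5 ± 28.3 in Npffr1-KO, and the groups overlapped. The fitted difference was 0.37 ± 0.28, with an interval from -0.23 to 0.96 (limma, adjusted p = 0.577).

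**Figure D5:**
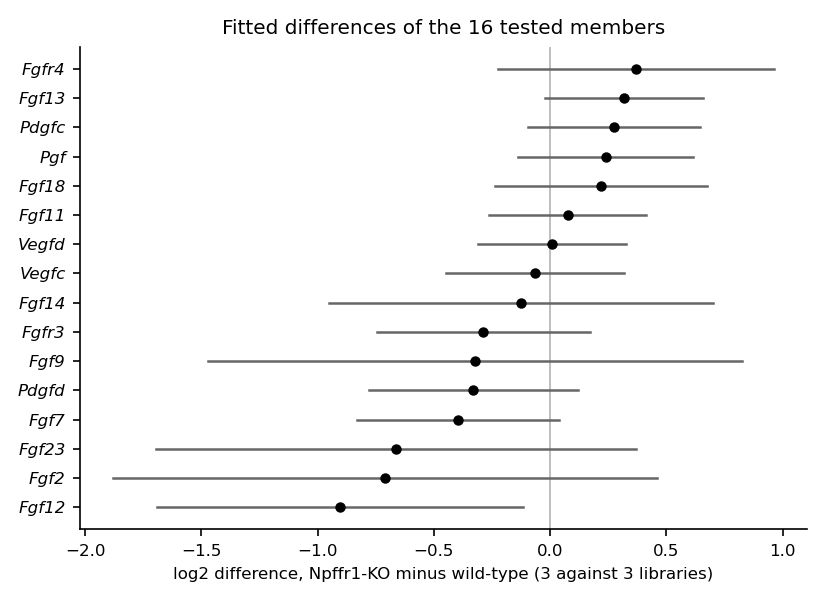
Fitted log2 differences (Npffr1-KO minus WT, limma, 3 against 3 libraries) of the 16 tested members, with points for estimates and lines for unadjusted 95% intervals. Only the interval of *Fgf12*, from -1.69 to -0.11, excludes 0, and no member passed the adjusted threshold.

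Among the secreted FGFs, *Fgf10*, a mesenchymal factor of epithelial budding and of fat development, had the highest level per kb. Its authors' values were 1241 in WT and 1262 in Npffr1-KO, a log2 ratio of 0.02. *Fgf1*, which is induced in fat by PPARγ, followed with 539, 609 and 589.5 normalized counts in WT and 485, 659 and 633 in Npffr1-KO. Its means of 579 ± 36.2 and 592 ± 94.0 (SD, n = 3) differed by less than the spread within each genotype. *Fgf1* lay above the range of the test. Of 377 genes with means of 550 to 600, 134 were recovered, each by a choice among several combinations. The means and spreads of *Fgf1* depend on that choice, so no conclusion is drawn from them. *Fgf18*, a growth factor of cartilage and bone, had 128, 173 and 184 in WT and 145, 186 and 241 in Npffr1-KO, a difference of 0.22 ± 0.21 (limma, adjusted p = 0.679).

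*Fgf7*, keratinocyte growth factor, was the only tested member whose groups did not overlap. Its normalized counts were 158, 224 and 180 in WT and 112, 157 and 158 in Npffr1-KO. WT a and Npffr1-KO c were nearly equal, so the separation rested on a margin smaller than 1 normalized count. All Npffr1-KO libraries lay below all WT libraries in 11.0% of tested genes and above them in 8.52%, so 1 of 16 members below and 0 of 16 above are no more than the background. The fitted difference was -0.40 ± 0.20, with an interval from -0.83 to 0.04 (limma, adjusted p = 0.386). *Fgf10* and *Fgf7*, which share a receptor, were 3.90 times apart per kb in WT and 5.13 times in Npffr1-KO.

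*Fgf2*, basic FGF, was scarce, with 13.5, 20.6 and 8.93 normalized counts in WT and 5.78, 7.06 and 12.0 in Npffr1-KO. The difference of -0.71 ± 0.55 was wide (limma, adjusted p = 0.587). Its listed length of 695 bases is short, and its level per kb rests on that length. *Fgf9*, a factor of gonad and lung development, had similar counts, between 7.64 and 18.6 over all 6 libraries, and a difference of -0.32 ± 0.54.

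Of the 3 endocrine FGFs, *Fgf23*, the phosphate-regulating hormone of bone, was detected at 26.1, 16.6 and 31.8 normalized counts in WT and 9.64, 33.3 and 9.82 in Npffr1-KO. Npffr1-KO b was the highest of all 6 libraries and the other Npffr1-KO libraries were the lowest. The fitted difference was -0.66 ± 0.48 (limma, adjusted p = 0.561). *Fgf21*, the hormone of fasting and cold, had 9 reads in the 6 libraries together, and *Fgf15*, the bile acid hormone of the gut, had 4.

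The intracellular members held the largest fitted difference of the families. *Fgf12* had 25.1, 37.2 and 42.7 normalized counts in WT and 16.4, 26.2 and 13.1 in Npffr1-KO, means of 35.0 ± 8.99 and 18.6 ± 6.84 (SD, n = 3). Npffr1-KO b slightly exceeded WT a, so the groups overlapped. The difference was -0.90 ± 0.37, with an unadjusted p of 0.0275 in limma and an adjusted p of 0.281. *Fgf13*, which binds sodium channels and microtubules, had 246, 201 and 235 in WT and 231, 297 and 328 in Npffr1-KO, a difference of 0.32 ± 0.16 (limma, adjusted p = 0.378). *Fgf11* and *Fgf14* had differences of 0.08 ± 0.16 and -0.12 ± 0.39.

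The remaining 10 members stayed below a mean of 10 normalized counts. *Fgf16* had 48 reads in the 6 libraries together, *Fgf17* had 18 and *Fgf4* had 12. *Fgf5* had 9 reads, *Fgf8* had 3, *Fgf6* and *Fgf22* had 2 each, and *Fgf20* had 1. They were below the lower limit of the main test, so no difference between the genotypes is given for these genes. *Fgf3* had no entry in the table and was not analysed here.

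Of 14 FGF co-receptors, decoys and carriers with a mean of at least 10, 9 had a lower and 5 a higher authors' value in Npffr1-KO, with a median log2 ratio of -0.15. *Hspg2*, the basement membrane proteoglycan perlecan, had 34915 in WT and 27844 in Npffr1-KO. The glypican gene *Gpc3* had 4890 and 3483, and the decoy receptor gene *Fgfrl1* had 3958 and 4282. *Fgfbp3*, a carrier that releases FGFs from matrix, was the only tested gene of this list and was picked out after its values were seen. It had 187 and 79.7. Its normalized counts were 295, 154 and 130 in WT a, b and c and 75.2, 69.6 and 78.6 in Npffr1-KO a, b and c. All Npffr1-KO libraries lay below all WT libraries, as in 11.0% of tested genes, and WT a lay far above the other WT libraries. The fitted difference of *Fgfbp3*, -1.27 ± 0.27 (SE), did not pass the threshold (limma, adjusted p = 0.063). *Klb*, the β-Klotho co-receptor of FGF21, was named in the same way, with 1195 and 890.

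FGF signaling induces a set of genes that includes its own feedback inhibitors. The list of feedback and target genes also held *Frs2* and *Frs3*, which are receptor adaptors rather than induced genes, and both were lower. Of the 13 listed genes with a mean of at least 10, 3 were higher and 10 lower. The median log2 ratio was -0.19, and none of the 4 tested passed the threshold. *Dusp6*, the MAPK phosphatase, had 1490 in WT and 1732 in Npffr1-KO. The other higher genes were *Spry2*, with 534 and 641, and *Spry4*, with 1245 and 1319. Both *Spred1*, with 1563 and 1425, and *Spry1*, with 1418 and 1296, are inhibitors of the RAS relay. In the shared relay below the receptors, 7 of 21 genes were higher and 14 lower, with a median of -0.05 and none tested. *Akt1* had 7757 and 7484, *Akt2* had 7351 and 8831, and the ERK1 gene *Mapk3* had 5757 and 5856.

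Markers of other cells in the depot had values in both directions. Of 4 Schwann cell markers described here, which stand for nerve, 3 were lower, with a median log2 ratio of -0.56 and of -0.57 relative to genes of like length. *Mbp*, a myelin gene, had 8453 in WT and 6228 in Npffr1-KO, and *S100b*, the one higher gene and named for that after its values were seen, had 472 and 743. Of 10 adipocyte markers, 7 were higher, with a median log2 ratio of 0.12; *Fabp4* had 156280 in WT and 173190 in Npffr1-KO, and *Lpl* had 136810 and 146170. Relative to genes of like length the adipocyte median was 0.04, and *Fabp4* turned to -0.12. All 6 thermogenic adipocyte markers with a mean of at least 10 were higher, with a median of 1.62. Among them *Cidea* had 304 and 1427, and *Cox8b* had 460 and 1567. Only *Dio2* of these was tested, and its groups overlapped. Its fitted difference was 0.64 ± 0.52 (SE, limma, adjusted p = 0.606). The higher values of the other thermogenic markers were not tested. All 7 lymphocyte markers were higher, with a median of 0.56, and the most abundant, *Ptprc* and *Cd79a*, had 3242 and 4777, and 3383 and 4250. Of 7 macrophage markers 5 were higher (median 0.22, or 0.03 relative to genes of like length), of 8 skeletal muscle markers 7 (median 0.54), and of 3 mammary epithelial markers 1 (median -0.07), while both keratinocyte markers above a mean of 10 were lower (median -0.30). The part of these cell types in the values of the growth factor genes was not tested.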

How the data were processed

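Reads were obtained from iAT of 3 WT and 3 Npffr1-KO samples, grouped by the genotype label. The deposited signal holds 1 value per gene and genotype on the scale of read counts corrected for library size, beside a gene length in bases. These values are not the means of a genotype's recovered counts. In the processing notes the authors named Bowtie2, RSEM and DESeq2. For these tools the role and version, and also genome build and annotation, were not given in the sources used here. Columns with the authors' fold changes and p-values, and a second table of genes selected by them, were not used.

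Genes with a single read fell on 6 means, which gave 6 size factors, and the genotype column that was raised gave each library's genotype. Whole reads per library were then searched (Python 3.11.15, numpy 2.4.6) so that they met the mean of both values within its 15 significant digits. Combinations were ranked by how near equal they were and, from a mean of 40, also by the ratio of the deposited values, and the best was accepted at 99% of the weight. The ratio and the recovered direction are therefore not independent above this mean. Of genes with a mean of up to 300, 97.8% were recovered. Both steps were also run on simulated data that used the size factors and the ratio model taken from these same values. That run cannot show whether the model holds for the deposited values. The authors' values draw the ratio towards 0 for genes with few reads.

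Recovered genes with a mean of 10 to 300 were tested two-sided with limma 3.58.1 in R 4.3.3 (trend) on log2(normalized count + 1), with Benjamini-Hochberg adjustment and a threshold of 0.05. An exact permutation test of 3 against 3 cannot give a p under 0.1 and was not used. Other members are described by the authors' values and a limit of 80% of WT or 25% above it. All members are named, with the 3 highest genes of each pathway list, the 2 highest genes of each marker list and *Npffr1*; other names were chosen after their values were seen. 1 marker gene is not reported here. Members and lists were chosen with earlier results of these data known. Alternatives were other pseudocounts, filters, scalings, weights, folds, centring by median or length, and leaving out each library; limits of 200 and 600 on the mean were added after seeing the data.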

Additional observations from a re-analysis of the deposited data

How the results depend on the processing

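No member passed an adjusted p of 0.05 under any of 18 other settings of the fit, where the lowest adjusted p was 0.166. Of 278 fitted member values under these settings, 273 kept their direction, and the 5 that turned were small and came from leaving out 1 library. With 1 library left out, *Fgf11* ranged from -0.0043 (without Npffr1-KO a) to 0.22 (without Npffr1-KO c), *Vegfc* from -0.20 (without Npffr1-KO c) to 0.087 (without WT b), and *Vegfd* from -0.12 (without WT b) to 0.083 (without WT c). *Vegfc* also turned without Npffr1-KO a (0.06) and *Vegfd* without Npffr1-KO c (-0.03). The difference of 15 of the 16 members, all but *Fgf12*, moved by over 1.5 times without some library. *Fgf18* went from 0.22 to 0.04 (without Npffr1-KO c), *Fgf9* from -0.32 to -0.01 (without WT b), *Fgfr4* from 0.37 to 0.14 (without Npffr1-KO a), *Fgfr3* from -0.29 to -0.11 (without WT b) and *Fgf23* from -0.66 to -1.22 (without Npffr1-KO b). The count of all tested genes past the threshold, 9 in the report, was 26 with a pseudocount of 5, 26 with a mean of at least 1, 23 with a mean of at least 50, 22 without a filter, 14 with robust empirical Bayes and 5 with means up to 200. It was 49 at an adjusted p of 0.1 and 0 at 0.01. Leaving out 1 library gave 0 (WT a or Npffr1-KO a), 1 (WT b or WT c), 18 (Npffr1-KO b) and 23 (Npffr1-KO c) genes, so the count depended on single libraries and the cause was not tested. The members with authors' values past the limit in the report, 1 higher and 9 lower, became 0 and 1 at 1.5-fold and 7 and 15 at 1.1-fold. They were 0 and 7 with a pseudocount of 10, 2 and 11 with means of recovered reads, 1 and 10 centred on the median gene, and 1 and 7 centred on genes of like length, where *Kdr*, *Fgfr1* and *Pdgfra* no longer passed it and *Pdgfd* did. No paired analysis was possible because the recovered libraries could not be tied to replicate numbers. Receptors of the VEGF and PDGF families had too many reads for recovery, so no spread can be given for them.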
